A study of Mus musculus with 60 samples.

Results

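Described here are 10 genes of the circadian clock in primary mouse hepatocytes: the activators Arntl (also written Bmal1), Clock and Npas2, the repressors Per1, Per2, Per3 and Cry1, the nuclear receptors Nr1d1 and Nr1d2, and the output gene Dbp. They were taken by symbol from the probe annotation of the array, with the brightest probe set, by its mean over the 60 arrays, standing for a gene that has several. They are 10 of 18194 genes with a probe set of their own, and all 10 were among the 14513 genes that passed the intensity filter. The cells came from livers of male C57BL/6N mice of 8 to 12 weeks, and each experiment used 1 animal or a pool of up to 3. Every culture was plated in medium with 10% FBS and 100 nM dexamethasone, and was then kept for 24 h without serum, still with 100 nM dexamethasone. At 0 h the cells received 40 ng/ml rmHGF (HGF, hepatocyte growth factor), 40 ng/ml rhIL-6 (IL-6, interleukin 6), both factors (the combination), or nothing (unstimulated). RNA was taken before stimulation (0 h) and at 7 hours after it: at 0.5, at 2 and at 4 h, at 8 h, and then every 8 h up to 32 h. The 60 arrays form 29 groups of 2 arrays each, except for 4 arrays at 0 h, which all 4 arms share. The series text speaks of triplicates, and the labels do not tie an array to an animal. P-values therefore speak for the spread among these arrays, which may be technical, and precision is limited by how few there are.

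The mammalian clock is a loop in which ARNTL, paired with CLOCK or NPAS2, binds E-box sequences and switches on the Per and Cry genes. The PER and CRY proteins then repress that pair, so transcription rises and falls about once a day. In a second loop the same activators drive Nr1d1 and Nr1d2, whose products, REV-ERB alpha and beta, repress Arntl and Npas2 at ROR elements, which the ROR receptors activate. Dbp, a PAR bZIP factor that binds D-box sequences, passes the rhythm on to metabolic genes and is among the most strongly cycling transcripts of mouse liver. In liver, Arntl and Npas2 are known to peak in the opposite part of the day to Nr1d1, Dbp and the Per genes. Glucocorticoids are known to set the phase of clocks in cultured cells, and all 4 arms carried dexamethasone.

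The sequences show where the textbook elements of these loops lie near the start sites of members. Of the 10 genes, 9 matched RefSeq promoter windows (build GRCm38.p6), with 13 windows between them; each window runs from 250 bases before the start site to 50 after it. Both strands were searched for the E-box CACGTG. The same was done for the related E'-box CACGTT, which reads AACGTG on the other strand. The D-box was searched as TTATGTAA, the ROR element as TAGGTCA and the cyclic AMP element as TGACGTCA. No 2 of these words overlapped in a member's window. Of 32851 mouse promoter windows, 7.15% held the E-box, 4.68% the E'-box, 0.938% the D-box, 2.61% the ROR element and 1.79% the cyclic AMP element. The 4 windows printed are the ones with an E-box, a D-box or the ROR element, in capitals, each written 5′ to 3′ on the strand of its gene. Arntl lies on the plus strand at chr7:113207261-113207560 and Per1 on the plus strand at chr11:69098699-69098998. Cry1 lies on the minus strand at chr10:85185005-85185304 and Per3 on the minus strand at chr4:151044616-151044915.
Arntl: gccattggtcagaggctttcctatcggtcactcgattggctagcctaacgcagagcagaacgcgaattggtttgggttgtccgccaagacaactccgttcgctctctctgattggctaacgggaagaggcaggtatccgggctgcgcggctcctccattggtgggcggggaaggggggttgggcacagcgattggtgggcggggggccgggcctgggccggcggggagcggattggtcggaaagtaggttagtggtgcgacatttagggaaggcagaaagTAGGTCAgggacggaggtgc
Cry1: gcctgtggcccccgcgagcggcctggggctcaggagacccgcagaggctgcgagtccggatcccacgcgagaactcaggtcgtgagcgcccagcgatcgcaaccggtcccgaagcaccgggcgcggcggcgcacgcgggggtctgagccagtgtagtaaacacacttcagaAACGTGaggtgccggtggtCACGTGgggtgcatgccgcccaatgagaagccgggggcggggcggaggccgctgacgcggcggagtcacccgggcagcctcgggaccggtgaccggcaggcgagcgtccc
Per1: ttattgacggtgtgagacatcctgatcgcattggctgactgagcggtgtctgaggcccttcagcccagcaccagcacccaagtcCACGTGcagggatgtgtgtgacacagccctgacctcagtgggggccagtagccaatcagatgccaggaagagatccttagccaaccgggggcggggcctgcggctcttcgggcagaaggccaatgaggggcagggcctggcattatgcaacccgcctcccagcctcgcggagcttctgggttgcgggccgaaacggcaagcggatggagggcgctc
Per3: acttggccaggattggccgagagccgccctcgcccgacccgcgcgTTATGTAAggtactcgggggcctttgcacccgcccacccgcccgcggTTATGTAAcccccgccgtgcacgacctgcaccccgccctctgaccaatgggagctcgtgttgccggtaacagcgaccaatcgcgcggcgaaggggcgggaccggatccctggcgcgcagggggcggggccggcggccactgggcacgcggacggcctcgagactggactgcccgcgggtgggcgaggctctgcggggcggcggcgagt
The Arntl window holds TAGGTCA 31 bases after the start site. The Cry1 window holds AACGTG and CACGTG, beginning at -79 and -60, and the Per1 window holds CACGTG at -166. The Per3 window holds TTATGTAA at -205 and at -158. The Nr1d1 window, not printed, holds AACGTG at -28, and none of these letters was found in the windows of Clock, Npas2, Nr1d2 or Dbp. A match is a description of letters and not a measured site.

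Hepatocyte markers were high on all 60 arrays: the mean log2 level of Alb, Ttr, Apoa1, Apob and Hnf4a ranged from 11.44 to 13.27, and all 5 lay above the 40th percentile of every array. The mean of 5 macrophage markers ranged from 6.48 to 7.35, that of 5 endothelial markers from 5.18 to 6.16, of 5 stellate cell markers from 4.37 to 5.25, of 3 cholangiocyte markers from 5.43 to 6.63 and of 4 leukocyte markers from 4.34 to 4.70. In such bulk RNA, fewer cells of a type and less RNA per cell cannot be told apart. Array medians lay between 4.88 and 4.97. Spiked controls differed between arms and hours. The labelling control dap had a 3′ minus 5′ log2 signal of 1.18 to 1.52 on all 10 arrays of unstimulated cells up to 4 h, and of 2.46 to 3.11 on 49 others, and IL-6 at 24 h replicate 1 stood at 3.99. The dap values thus change between 4 and 8 h in unstimulated cells, a step that the unstimulated time course and every course set against the shared 0 h arrays cross. Up to 4 h, every comparison of a stimulus with unstimulated cells sets the higher dap range against the lower one. The F-tests over 7 hours include those hours. The hybridisation control bioB had a median of 6.26 on the 42 stimulated arrays (5.48 to 8.69) and lay between 8.40 and 8.83 on unstimulated ones. From 8 h on it was at 8.40 to 8.77 without stimulus, at 6.03 to 7.10 under HGF, at 5.55 to 7.30 under IL-6 and at 5.48 to 5.95 under the combination. The bioB difference therefore crosses the comparisons with unstimulated cells at late hours too. The part of either control in the results was not tested. From 8 h on unstimulated arrays share the dap range of the others but not the bioB range.

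In unstimulated culture the clock genes moved in 2 directions and then rose together. The activator genes Arntl and Npas2 fell to a trough at 16 h, while Nr1d2 and Dbp had risen by 8 h, and at 32 h 8 of the 10 genes stood at their highest level. The dap control shifted between 4 and 8 h as well, and its part in these courses was not tested. The share of all genes that were highest at 32 h, the last hour, is not given here. From 24 to 32 h the members other than Per3 rose by 0.51 (Per1) to 2.996 (Dbp). The median change of all genes over those hours was -0.0011, and the median absolute change 0.17. Of the 10, 9 changed over the hours against 0 h in the limma F-test (adjusted p below 0.05 over all 14513 genes; 75.0% of all genes passed). The exception was Per3, by the probe set used. The members' largest changes were wide next to the array as a whole: the range from the lowest to the highest hourly mean had a median of 1.91 on the log2 scale over the 10 genes, against 0.51 over all genes kept, of which 9 in 10 lay below 1.29.

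Arntl, the partner that every active clock complex needs, had log2 levels of 8.18, 8.24, 8.19 and 8.05 at 0 h, of 7.12 and 7.14 at 8 h and of 6.85 and 7.01 at 16 h. It then stood at 8.06 and 7.94 at 24 h and at 8.74 and 8.77 at 32 h. The 16 h arrays lay below all others and the 32 h arrays above all others, a change of -1.23 ± 0.07 (SE) at 16 h against 0 h (adjusted p = 8.08e-24). Npas2, which can replace CLOCK as the partner of ARNTL, followed the same course with a deeper trough, from 5.99, 5.75, 6.16 and 5.70 at 0 h to 3.41 and 3.90 at 16 h and back to 5.99 and 6.19 at 32 h. Npas2 fell by 2.24 ± 0.15 (adjusted p = 5.06e-19), to a signal under the 40th percentile of both 16 h arrays, and its 24 h arrays, 4.98 and 4.45, were still below those of 0 h. Clock, by its brightest probe set, moved less than Arntl and Npas2: its hourly means spanned 0.67, a 1.59-fold range. Its rise at 32 h was 0.51 ± 0.06 (adjusted p = 3.56e-12). By the probe set 1418660_at Clock went from 7.20 and 7.11 at 2 h to 8.10 and 8.11 at 32 h. By 1435775_at it went from 7.07 and 6.83 to 7.80 and 7.95 over the same hours.

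Nr1d2, which encodes REV-ERB beta, was at 9.50, 9.50, 9.64 and 9.43 at 0 h and still at 9.65 and 9.63 at 4 h, but at 10.97 and 11.00 at 8 h. It stayed high, at 11.22 and 11.11 at 16 h, 10.81 and 10.75 at 24 h and 11.51 and 11.49 at 32 h, the last being a rise of 1.98 ± 0.08 (adjusted p = 4.55e-30). All arrays from 8 h on lay above all earlier ones. Nr1d1, which encodes REV-ERB alpha, showed no such step. It was between 4.55 and 5.38 on every array up to 24 h, and at 6.63 and 6.24 at 32 h, a rise of 1.51 ± 0.13 (adjusted p = 6.8e-12). Up to 24 h this was a weak signal, near the array medians of 4.88 to 4.97, where a small step may not show.

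Dbp had the widest course of the 10. It was at 4.18, 4.35, 4.48 and 3.96 at 0 h, and no array up to 4 h passed 4.63. Its level was 5.84 and 6.09 at 8 h, 5.70 and 5.65 at 16 h, 4.77 and 5.02 at 24 h, and 8.10 and 7.68 at 32 h. So Dbp went up, came partly down and went up again, with a range of 3.65 on the log2 scale (adjusted p = 4.62e-21 for the time course). Its low end is a weak signal: over the 4 arms Dbp was not above the 40th percentile of the array on 20 of the 28 arrays up to 4 h, so no fold is given against those hours.

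Among the repressors, Per2 was at 5.21, 5.29, 5.13 and 4.80 at 0 h, had 6.25 and 6.24 at 16 h, 5.94 and 5.90 at 24 h and 6.66 and 6.94 at 32 h (rise of 1.69 ± 0.18, adjusted p = 9.82e-13). Cry1 first declined, from 7.63, 7.66, 7.74 and 7.63 at 0 h to 7.12 and 7.10 at 8 h, and then climbed to 9.08 and 9.12 at 32 h (rise of 1.43 ± 0.08, adjusted p = 6.17e-22). Per1 stayed between 7.35 and 7.96 up to 24 h and stood at 8.47 and 8.38 at 32 h (rise of 0.95 ± 0.08, adjusted p = 2.3e-12). Per2 thus rose with Nr1d2 and Dbp, Cry1 turned upward 8 h before Arntl did, and Per1 joined at the end. Per3 lay between 4.67 and 5.00 on all 18 unstimulated arrays by its main probe set (adjusted p = 0.635); another probe set, described further on, gave a rise.

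**Figure D1:**
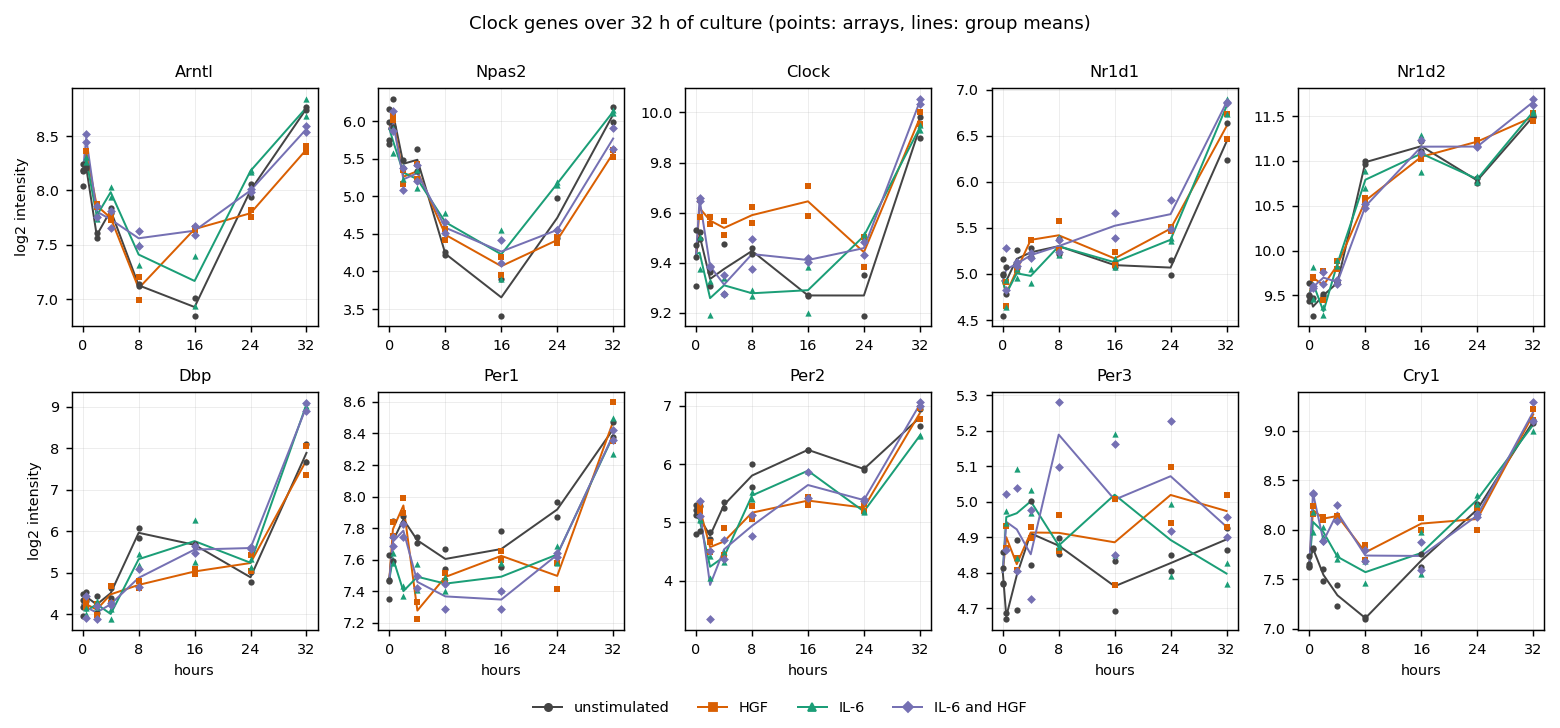
Log2 intensity of the 10 clock genes (vertical axes, 1 panel per gene) against hour after stimulation (horizontal axis); points are single arrays and lines join the group means of unstimulated cells, HGF, IL-6 and the combination, with the 4 arrays at 0 h shared. In unstimulated cells Arntl and Npas2 fall to 16 h and return, and Nr1d2 steps up at 8 h. There 8 of 10 genes are highest at 32 h.

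The stimulated arms shared the late rise, but not every turn before it. The lowest mean of Arntl came at 8 h under HGF (7.10) and the combination (7.56), and at 16 h under IL-6 (7.17). From 16 to 24 h Dbp changed by -0.78 without stimulus, -0.52 under IL-6, 0.20 under HGF and 0.04 under the combination. Nr1d2 changed by -0.38, -0.29, 0.17 and 0.0012 in that order. These changes over 8 h carry no test. The highest mean of the course came at 32 h for 8 of 10 genes under HGF, 9 of 10 under IL-6 and 8 of 10 under the combination. For these arms too, the share of all genes highest at that hour is not given here. Against 0 h, 9 of 10 genes changed under HGF (74.5% of all genes), 9 of 10 under IL-6 (78.4%) and 10 of 10 under the combination (81.2%). These time courses share the 0 h arrays. Over the 10 genes the median range was 1.66 under HGF, 1.75 under IL-6 and 1.63 under the combination, against 0.53, 0.53 and 0.60 over all genes. By 16 h Npas2 fell by 1.83 from its 0 h level under HGF, decreased by 1.67 under IL-6 and decreased by 1.63 under the combination.
The count of 10 under the combination includes Per3 (adjusted p = 0.0426), which missed the threshold without any of 7 of the 18 arrays involved (adjusted p 0.0505 to 0.226).

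The hours 8 and 32, and 0 and 24, lie 1 day apart, and several of the clock genes did not return to the same level. In unstimulated cells the level at 32 h was above that at 8 h by 1.99 for Cry1, 1.93 for Dbp, 1.85 for Npas2 and 1.62 for Arntl on the log2 scale, where the median absolute difference of all genes was 0.29. At 24 h against 0 h, Nr1d2 was higher by 1.26, Per2 by 0.81, Dbp by 0.65, Cry1 by 0.54 and Per1 by 0.44. Npas2 was at -1.18 and Arntl at -0.16, with a median absolute difference of 0.25 over all genes. Nr1d1 stood at 0.14, Clock at -0.16 and Per3 at 0.02, so these genes and Arntl differed by less than that median. The last 8 h alone took Dbp up by 2.996 without stimulus, by 2.48 under HGF, by 3.81 under IL-6 and by 3.40 under the combination. These 1-day pairs carry no test. A rhythm and a drift with hours of culture cannot be told apart from little more than 1 cycle.

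Each stimulus against unstimulated cells of the same hour was the next comparison. It asked whether growth factor or cytokine alters the clock genes beyond their course in culture. HGF changed 8 of the 10 genes (62.6% of all genes passed), IL-6 changed 8 of 10 (55.1%) and the combination changed 10 of 10 (68.0%). Taking the direction at each gene's most changed hour, HGF gave 4 higher and 4 lower, IL-6 6 higher and 2 lower, and the combination 7 higher and 3 lower. The shares of all genes are high too, so the counts say little about the clock genes as a group; their sizes say more at some hours. The median absolute difference of the 10 genes was 0.37 at 16 h under HGF and 0.39 at 8 h under the combination, against 0.17 and 0.15 over all genes, but 0.08 at 32 h under HGF, where all genes had 0.13. With hours 8 to 32 h alone, 8 genes passed under HGF (55.1% of all genes), 7 under IL-6 (42.0%) and 10 under the combination (57.2%).

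Arntl was the activator with the clearest response. At 16 h its levels were 6.85 and 7.01 in unstimulated cells, 7.66 and 7.63 under HGF, 6.94 and 7.39 under IL-6, and 7.59 and 7.67 under the combination. All 4 arrays with HGF lay above both arms without it, a difference from unstimulated cells of 0.72 ± 0.09 for HGF (1.64-fold, adjusted p = 2.32e-09) and 0.70 ± 0.09 for the combination (adjusted p = 8.99e-10). IL-6 alone gave its largest difference at 8 h, 0.28 ± 0.09, with 7.32 and 7.50 against 7.12 and 7.14 (adjusted p = 0.0017). The sign under HGF turned at the last hour: 8.35 and 8.40 at 32 h against 8.74 and 8.77, a difference of -0.38 (adjusted p within that hour 6.9e-04). Arntl under HGF was thus higher at the hour of the unstimulated trough and lower at the last hour.

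Npas2 differed less and in both directions. At 16 h the unstimulated arrays read 3.41 and 3.90, HGF 3.95 and 4.20, IL-6 3.90 and 4.55, and the combination 4.11 and 4.42. The stimulated arrays were at or above the higher unstimulated one. The signal was weak, with only 1 IL-6 and 1 combination array of the 8 above their 40th percentile. At that hour there was a difference of 0.57 ± 0.18 for IL-6 (adjusted p = 0.00319) and 0.61 ± 0.18 for the combination (adjusted p = 0.0134). Under HGF the largest difference came at 32 h, 5.53 and 5.62 against 5.99 and 6.19, or -0.52 ± 0.18 (adjusted p = 0.0234). The HGF call was lost without unstimulated 16 h replicate 1, unstimulated 32 h replicate 2, HGF 16 h replicate 2 or HGF 32 h replicate 1 (adjusted p 0.0614 to 0.0827). That of the combination was lost without unstimulated 16 h replicate 1 or combination 16 h replicate 2 (adjusted p 0.0846 to 0.101).

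Clock, by its brightest probe set, was higher under HGF at 16 h, with 9.58 and 9.70 against 9.27 and 9.27 (0.38 ± 0.06, adjusted p = 7.83e-07). Under IL-6 the largest difference was at 24 h, with 9.51 and 9.50 against 9.35 and 9.19 (0.24 ± 0.06, adjusted p = 0.0104), and under the combination it was also at 24 h (0.19 ± 0.06, adjusted p = 0.0117). The groups did not overlap at these hours, but without unstimulated 24 h replicate 2 the calls for IL-6 and the combination were lost (adjusted p = 0.0904 and 0.0529). Quantile normalization also ended the Clock call for the combination (0.17, adjusted p = 0.065). Other probe sets of Clock moved the opposite way, as given further on.

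By its brightest probe set Nr1d2 was lower at 8 h and higher at 24 h wherever HGF was present. At 8 h its levels were 10.97 and 11.00 in unstimulated cells, 10.52 and 10.59 under HGF, 10.88 and 10.69 under IL-6 and 10.47 and 10.51 under the combination. At 24 h they were 10.81 and 10.75, 11.23 and 11.20, 10.83 and 10.76, and 11.16 and 11.16. So the 4 arrays with HGF lay below all others at 8 h and above all others at 24 h. For HGF the differences were -0.43 at 8 h and 0.43 ± 0.09 at 24 h (adjusted p = 1.11e-06), and for the combination -0.49 ± 0.09 at 8 h and 0.38 at 24 h (adjusted p = 2.41e-06). IL-6 gave 0.26 ± 0.09 at 0.5 h (adjusted p = 0.0103), with 9.81 and 9.46 against 9.47 and 9.27, so that one IL-6 array lay below one unstimulated array. With hours 8 to 32 h alone the largest IL-6 difference of Nr1d2 was -0.20 and did not pass (adjusted p = 0.343).

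Nr1d1 was higher under the combination from 16 h on. At 24 h the combination gave 5.80 and 5.49 against 4.99 and 5.15, a difference of 0.58 ± 0.15 (adjusted p = 0.00165), and at 32 h 6.87 and 6.86 against 6.63 and 6.24. HGF gave 5.47 and 5.51 at 24 h and IL-6 5.36 and 5.39, also above both unstimulated arrays, with adjusted p = 0.19 and 0.0999 over the course. Neither the combination against HGF nor the combination against IL-6 passed for Nr1d1.

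Dbp separated the stimuli most. At 8 h its levels were 5.84 and 6.09 in unstimulated cells, 4.63 and 4.80 under HGF, 5.46 and 5.20 under IL-6, and 4.67 and 5.09 under the combination. All stimulated arrays were below both unstimulated ones, the lowest being those with HGF. At 32 h the order was another: 8.10 and 7.68 in unstimulated cells, 8.07 and 7.37 under HGF, 9.01 and 9.11 under IL-6, and 8.90 and 9.10 under the combination. The 4 arrays with IL-6 lay above the 4 without it. The largest difference of HGF was -1.25 ± 0.22 at 8 h, where unstimulated cells had 2.39-fold the signal of Dbp (adjusted p = 5.93e-05). IL-6 was higher at 32 h by 1.17 ± 0.22 or 2.25-fold (adjusted p = 5.53e-05), and the combination by 1.11 ± 0.22 (adjusted p = 1.24e-06). The combination carried both features, with -1.08 at 8 h, 0.70 at 24 h and 1.11 at 32 h. IL-6 alone was at -0.64 at 8 h (adjusted p within that hour 0.0342). From its lowest to its highest hourly mean Dbp spanned 3.60 under HGF, 5.05 under IL-6 and 4.96 under the combination on the log2 scale, next to 3.65 without stimulus, each from a weak signal at 2 or 4 h.

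Per2, a repressor of the ARNTL and CLOCK pair, had lower means in all stimulated arms between 4 and 24 h. At 24 h its levels were 5.94 and 5.90 in unstimulated cells, 5.32 and 5.19 under HGF, 5.20 and 5.18 under IL-6, and 5.36 and 5.40 under the combination. No stimulated array reached the unstimulated pair. The largest differences were -0.87 ± 0.20 at 16 h for HGF (adjusted p = 2.47e-05), -0.89 ± 0.20 at 4 h for IL-6 (adjusted p = 5.86e-05; -0.73 at 24 h) and -0.86 ± 0.20 at 8 h for the combination (adjusted p = 8.49e-07). At 32 h the difference was 0.08 for HGF, -0.31 for IL-6 and 0.23 for the combination, none of which passed at that hour. The pair of the combination at 2 h, 4.52 and 3.34, was the widest of the 28 pairs for Per2.

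Per1, the period gene that growth factors and hormones can induce at once, was also lower. At 4 h it was at 7.70 and 7.74 in unstimulated cells and at 7.22 and 7.33 under HGF, a difference of -0.44 ± 0.09 (adjusted p = 3.2e-05). At 2 h IL-6 gave 7.37 and 7.43 against 7.87 and 7.84, or -0.45 ± 0.09 (adjusted p = 3.9e-05), while HGF, with 7.90 and 7.99, was not below. Both of these hours lie in the range where the dap control differs. At 24 h all 6 stimulated arrays, between 7.41 and 7.69, were under the unstimulated 7.87 and 7.96. With hours 8 to 32 h alone, Per1 also passed under HGF (-0.42, adjusted p = 0.00176), IL-6 (-0.29, adjusted p = 0.0164) and the combination (-0.32, adjusted p = 3.38e-04). None of the arms had Per1 above unstimulated cells at 0.5 or 2 h by a difference that passed at that hour.

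Cry1 was the repressor that stimulation raised. At 4 h it stood at 7.24 and 7.44 in unstimulated cells, 8.14 and 8.14 under HGF, 7.70 and 7.75 under IL-6, and 8.09 and 8.26 under the combination, so that no group with a stimulus overlapped the unstimulated one. The difference was 0.80 ± 0.10 for HGF (1.74-fold, adjusted p = 9.88e-13) and 0.84 ± 0.10 for the combination (adjusted p = 3.63e-12). This hour lies in the range where the dap control differs, and its part was not tested. Already at 0.5 h Cry1 read 7.82 and 7.81 in unstimulated cells and 8.16 and 8.25 under HGF. IL-6 gave 7.98 and 8.18 then, and the combination 8.37 and 8.38. At 8 h these differences of Cry1 were 0.67 and 0.63 (adjusted p within that hour 4.31e-07 and 7.19e-07). IL-6 reached 0.46 ± 0.10 at 8 h (adjusted p = 1.33e-06), where the arrays read 7.46 and 7.69 against 7.12 and 7.10. Stimulated cells thus stayed above the early dip of Cry1 in unstimulated cells, and at 32 h the differences of 0.07, -0.03 and 0.10 did not pass at that hour.

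Per3, by its main probe set, passed under the combination: at 8 h it was at 5.28 and 5.10 against 4.90 and 4.85 (0.31 ± 0.12, adjusted p = 0.0218). Without combination 8 h replicate 1 it did not pass (adjusted p = 0.0644). HGF and IL-6 did not pass for Per3 (adjusted p = 0.5 and 0.157), and neither did the combination against HGF or against IL-6.

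**Figure D2:**
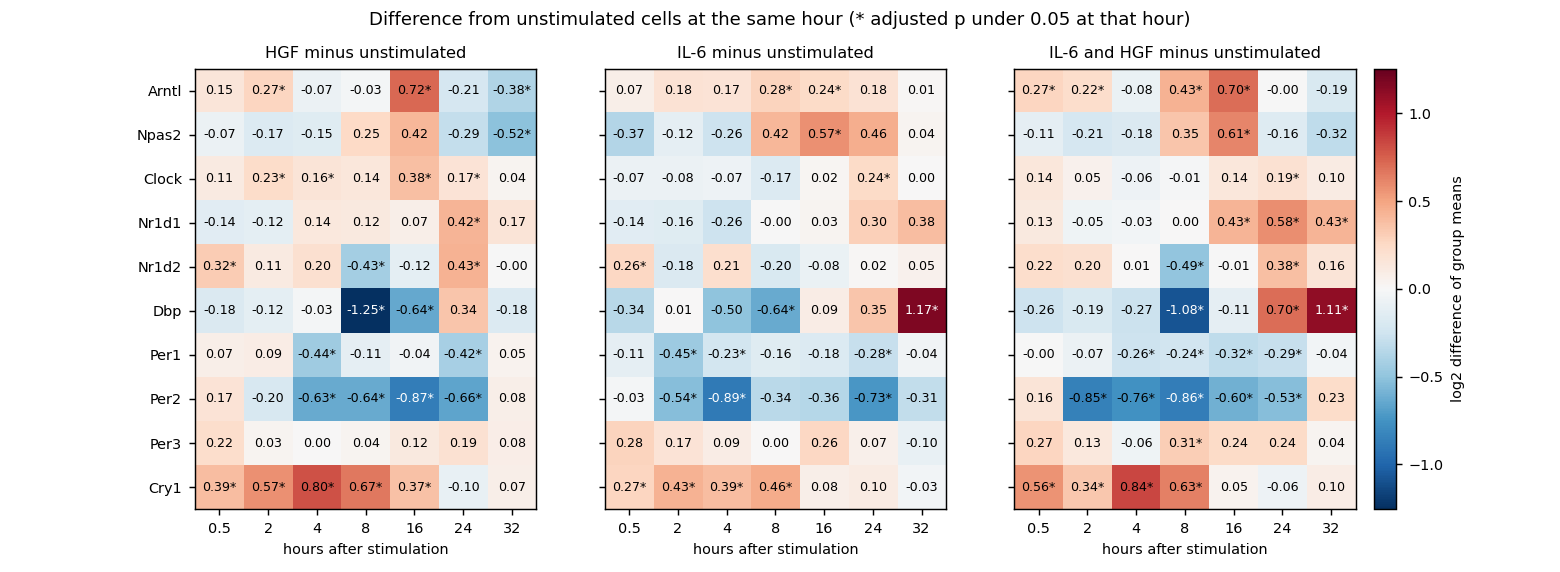
Log2 difference from unstimulated cells of the same hour (colour) for the 10 clock genes (rows) at 7 hours (columns), in 1 panel each for HGF, IL-6 and the combination; asterisks mark an adjusted p below 0.05 at that hour. The widest differences are those of Dbp, -1.25 at 8 h under HGF and 1.17 at 32 h under IL-6, and Per2 is lower in all 3 panels from 4 to 24 h.

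The stimuli were then compared with each other. IL-6 and HGF differed for 7 of the 10 genes (51.2% of all genes), the combination and HGF for 5 of 10 (41.6%), and the combination and IL-6 for 7 of 10 (44.1%). IL-6 lay above HGF for Dbp at 32 h by 1.34 ± 0.22 (adjusted p = 4.04e-06) and for Npas2 at 24 h by 0.75 ± 0.18, where the arrays were 5.19 and 5.15 against 4.37 and 4.46. It lay below HGF for Arntl at 16 h (-0.48 ± 0.09), Clock at 16 h (-0.36 ± 0.06), Nr1d2 at 24 h (-0.42 ± 0.09), Cry1 at 4 h (-0.41 ± 0.10) and Per1 at 2 h (-0.54 ± 0.09). Per2 did not pass (0.51 at 16 h, adjusted p = 0.0548), nor did Per3 and Nr1d1. At these hours the combination stood at -0.01 ± 0.09 from HGF for Arntl (16 h) and at -0.05 ± 0.22 from IL-6 for Dbp (32 h).

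Adding IL-6 to HGF raised Dbp at 32 h by 1.29 ± 0.22 (adjusted p = 1.53e-04) and Arntl at 8 h by 0.46 ± 0.09 (adjusted p = 3.49e-04). It lowered Clock (-0.23 at 16 h, adjusted p = 4.01e-04), Cry1 (-0.33 at 16 h, adjusted p = 0.0358) and Per1 (-0.28 at 16 h, adjusted p = 0.0241). Npas2, Nr1d1, Nr1d2 and Per3 were not called. The Per1 call was lost without HGF 16 h replicate 2 or combination 16 h replicate 1 (adjusted p 0.0733 to 0.0824) and the Cry1 call without any of 9 of the 28 arrays (adjusted p 0.0504 to 0.205). Without combination 16 h replicate 1 the count was 3 in place of 5. Per2 was not called, but passed without combination 2 h replicate 1, the higher array of its wide pair (adjusted p = 1.53e-04).

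Adding HGF to IL-6 raised Arntl at 16 h by 0.46 ± 0.09 (adjusted p = 2.76e-05), Cry1 at 4 h by 0.45 ± 0.10, Per1 at 2 h by 0.38 ± 0.09, Nr1d2 at 2 h by 0.38 ± 0.09 and Clock at 0.5 h by 0.21 ± 0.06. It also raised Per2 at 32 h by 0.54 ± 0.20 (adjusted p = 0.0392) and lowered Npas2 at 24 h (-0.62 ± 0.18, adjusted p = 0.0487). Dbp, Nr1d1 and Per3 were not called. The Npas2 call was lost without any of 16 of the 28 arrays (adjusted p 0.0503 to 0.145), the Per2 call without any of 10 (0.0504 to 0.11) and the Per1 call without IL-6 2 h replicate 1 or 2 or combination 2 h replicate 1 (0.0558 to 0.138). With hours 8 to 32 h alone 4 genes passed (34.6% of all genes), namely Per2, Arntl, Npas2 and Nr1d2.

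The interaction asks whether the log2 differences of both stimuli add up: from the difference of the combination, those of HGF and of IL-6 alone are taken away. It passed for 5 of the 10 genes (33.6% of all genes): Per1, Per2, Cry1, Clock and Nr1d2. For Cry1 it was -0.66 ± 0.14 at 2 h, the combination being less high than the sum of both stimuli (adjusted p = 7.35e-05). For Per2 it was 0.86 ± 0.29 and for Per1 0.42 ± 0.13, both at 24 h, where each stimulus alone was already low (adjusted p = 0.0213 and 0.0101). Dbp, Arntl, Npas2, Nr1d1 and Per3 did not pass. The Clock call (adjusted p = 0.0444 over the 7 hours) was lost without any of 36 of the 56 arrays (adjusted p 0.0504 to 0.11). With hours 8 to 32 h alone the interaction passed for 2 genes (19.7% of all genes), Per2 (0.86, adjusted p = 0.0362) and Cry1 (-0.50, adjusted p = 0.00921), while Clock stood at adjusted p = 0.0604.

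Phase and amplitude were estimated with a cosine of an assumed 24 h period and a straight trend for each arm, over 0.5 to 32 h. The amplitude is the height of the cosine above its middle on the log2 scale, and the peak hour is counted from stimulation. After 8 h the arrays stand 8 h apart, so each late turn rests on a single hour. The cosine passed for 5 of 10 genes in unstimulated cells (22.1% of all genes), 2 of 10 under HGF (20.4%), 4 of 10 under IL-6 (13.8%) and 2 of 10 under the combination (30.7%). The median amplitude of the 10 genes was 0.44, 0.29, 0.49 and 0.29 in that order, against 0.11, 0.11, 0.10 and 0.13 over all genes.

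In unstimulated cells Arntl had an amplitude of 0.69 ± 0.17 with its peak at 2.93 ± 0.87 h (adjusted p = 0.00743) and Npas2 one of 1.07 ± 0.27 at 3.46 ± 0.88 h (adjusted p = 0.00906). Nr1d1 peaked at 7.69 ± 0.83 h, Dbp at 10.26 ± 0.86 h with an amplitude of 1.08 ± 0.22 (adjusted p = 0.0017), and Nr1d2 at 12.87 ± 0.51 h with one of 0.65 ± 0.09 (adjusted p = 4.99e-06). The fitted order thus ran from Arntl and Npas2 through Nr1d1 and Dbp to Nr1d2. The peaks of Arntl and Npas2 lay within their errors of each other, and the order was not tested. Nr1d1 stood clear of its earlier levels only at 32 h, which an assumed 24 h period places at 8 h. At a 20 h period Arntl, Npas2 and Nr1d1 did not pass the cosine test (adjusted p = 0.727, 0.884 and 0.307). Without the slope Arntl, Nr1d1 and Dbp did not pass (adjusted p = 0.3, 0.216 and 0.114). Per1, Per2, Per3, Cry1 and Clock did not pass, with adjusted p between 0.076 and 0.468. Without unstimulated 16 h replicate 1 the count was 3, Arntl standing at adjusted p = 0.0944 and Npas2 at 0.14, and without unstimulated 16 h replicate 2 Arntl stood at 0.0521. With a step allowed between 4 and 8 h, where the dap control shifts, the amplitude of Arntl was 0.37 (adjusted p = 0.426) and that of Npas2 0.51 (adjusted p = 0.366), so both calls were lost. Nr1d1, Dbp and Nr1d2 passed with the step (adjusted p = 7.21e-04, 0.00489 and 0.0127), the amplitude of Nr1d2 then being 0.365.

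Under IL-6 the fitted peaks lay close to those without stimulus: 2.95 ± 0.97 h for Arntl, 7.43 ± 0.84 h for Nr1d1, 9.90 ± 0.97 h for Dbp and 12.88 ± 0.62 h for Nr1d2. Amplitudes were 0.63 ± 0.17 for Arntl, 0.95 ± 0.22 for Dbp and 0.54 ± 0.09 for Nr1d2 (adjusted p = 0.0266, 0.00977 and 2.08e-04). The 16 h arrays decide Arntl (adjusted p = 0.262 without replicate 1 and 0.0631 without replicate 2), and the 24 h arrays decide Dbp (0.0799 and 0.0951). Under HGF Nr1d1 and Nr1d2 passed, and Nr1d2 had an amplitude of 0.29 ± 0.09 with its peak at 14.70 ± 1.09 h (adjusted p = 0.0404; lost without any of 8 of 14 arrays, adjusted p 0.0538 to 0.15). Under the combination Nr1d2 had 0.37 ± 0.09 at 14.69 ± 0.88 h (adjusted p = 0.00562), lost without combination 16 h replicate 1 (adjusted p = 0.0516). Dbp passed at 0.69 ± 0.23 and 8.90 ± 1.33 h (adjusted p = 0.0482), a call lost without any of 7 of 14 arrays (adjusted p 0.0546 to 0.199) and under 6 other settings of normalization, filter, probe set summary, block or variance model. Arntl had amplitudes of 0.31 under HGF and 0.28 under the combination and did not pass (adjusted p = 0.337 and 0.385).

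The difference of the cosines between arms was tested directly, and no clock gene passed for HGF (4.24% of all genes), IL-6 (0.393%) or the combination (7.61%) in limma with Benjamini-Hochberg adjustment. At an unadjusted p under 0.05 there was 1 gene for HGF, 0 for IL-6 and 1 for the combination, each time Nr1d2. Its cosine differed from that of unstimulated cells by a vector of length 0.41 under HGF (adjusted p = 0.0867) and 0.36 under the combination (adjusted p = 0.109). The difference passed without unstimulated 24 h replicate 1 or 2 for HGF (adjusted p = 0.0315 and 0.0455) and without unstimulated 24 h replicate 1 for the combination (adjusted p = 0.0425). The smaller amplitudes of Arntl with HGF were therefore not shown to differ from that without it, and a p that misses the threshold does not show that the rhythms are alike.

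**Figure D3:**
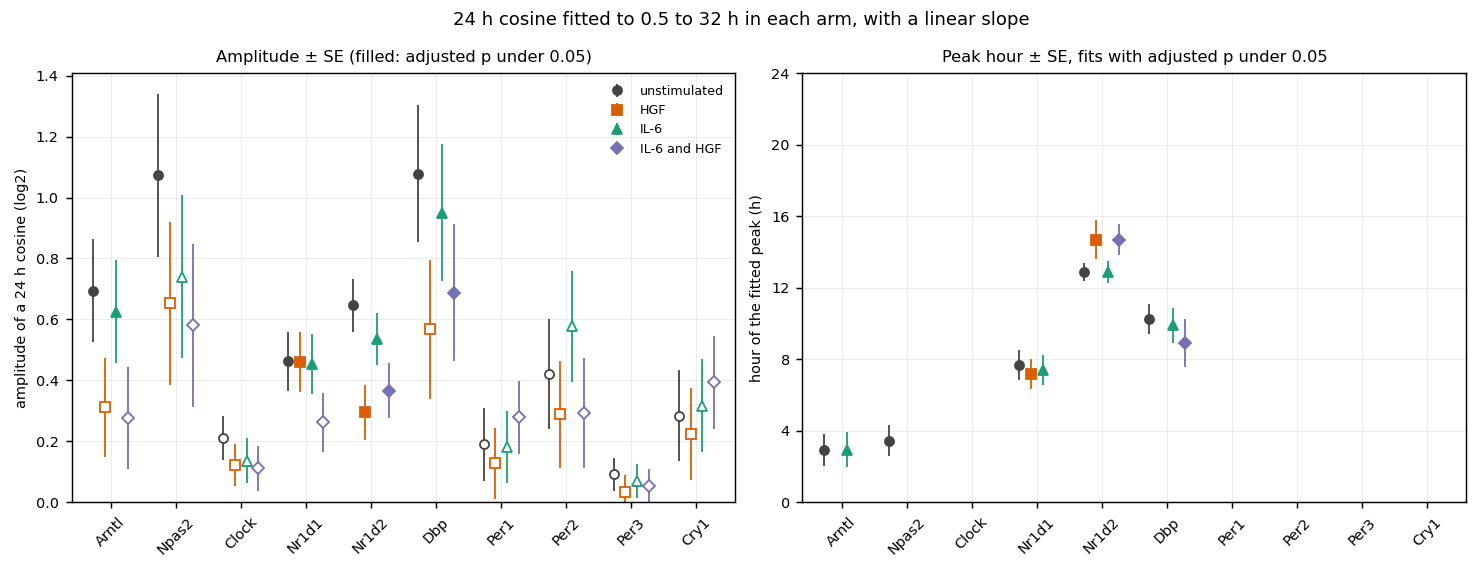
Fitted 24 h cosines of the 10 clock genes in the 4 arms: amplitude on the log2 scale (left, filled marks for fits that passed) and peak hour of the fits that passed (right), with bars of 1 SE. In unstimulated cells Arntl peaks at 2.93 h, Dbp at 10.26 h and Nr1d2 at 12.87 h, and Nr1d2 sits at 14.70 h under HGF.

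Some genes have several probe sets, and these did not always move alike. Per3 has 6, and the one used, with a mean of 4.91, was nearly equalled by another, 1421087_at. By that probe set Per3 was at 4.58, 4.70, 4.49 and 4.27 at 0 h and at 6.07 and 5.78 at 32 h without stimulus, 5.94 and 5.81 under HGF, 5.80 and 5.94 under IL-6, and 6.13 and 6.14 under the combination. All 32 h arrays lay above all 0 h arrays, a rise of 1.41 ± 0.14 in unstimulated cells (adjusted p = 2.67e-11), in the direction of Per1 and Per2. Its largest difference under the combination was -0.49 at 4 h (4.06 and 4.43 against 4.65 and 4.82, adjusted p = 0.0149), opposite to the +0.31 of the other probe set. The direction of Per3 is thus not settled by these arrays.

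Clock has 4 probe sets. The brightest, 1418659_at, gave the higher levels described above, while 1418660_at at 8 h read 7.38 and 7.46 in unstimulated cells, at most 7.11 under HGF, 7.22 and 7.17 under IL-6, and 6.91 and 6.92 under the combination. Every stimulated array was below the unstimulated ones, with differences of -0.37 (adjusted p = 1.44e-08), -0.23 (0.0102) and -0.51 (2.03e-11). A further probe set of Clock, 1435775_at, moved the same way, with 7.19 and 7.10 against 6.52 and 6.52 under HGF, 6.81 and 6.68 under IL-6 and 6.22 and 6.52 under the combination. Its differences were -0.62 (adjusted p = 5.26e-07), -0.40 (8.77e-04) and -0.77 (6.13e-11). The rise of Clock therefore holds for 1418659_at, and 2 other probe sets of Clock fell; which transcripts they read was not tested.

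For Dbp the other probe set, 1418174_at, moved as the first did. At 8 h it read 5.10 and 4.85 in unstimulated cells and 4.42 and 4.45 under HGF (-0.54, adjusted p = 0.0218). At 32 h it read 6.34 and 5.93 without stimulus, 6.98 and 6.96 under IL-6 (0.84, adjusted p = 4.94e-04) and 7.20 and 7.19 under the combination (1.06, adjusted p = 7.89e-06). The groups again did not overlap. For Nr1d2 the second probe set, 1416959_at, was also higher at 24 h under HGF (0.57, adjusted p = 0.00307) and the combination (0.80, adjusted p = 4.83e-06). At 8 h 1416959_at read 5.57 and 5.80 in unstimulated cells and 5.43 and 5.51 under HGF. Under IL-6 it read 5.46 and 5.11, and under the combination 5.32 and 5.67. The lowest array there was thus one without HGF, and the combination overlapped the unstimulated pair. The second probe set of Arntl, 1457740_at, was not called against unstimulated cells, nor were the 2 others of Per2, apart from 1457350_at under the combination (-0.38 at 32 h, adjusted p = 0.00982). The unstimulated rise of Per2 was that of 1417602_at. At 0 h 1417603_at read 5.27, 5.14, 5.04 and 5.00, and at 32 h 5.19 and 4.88. For 1457350_at these were 5.19, 4.84, 4.96 and 5.16, then 5.17 and 5.44. Npas2 by 1421036_at fell less, from 4.63, 4.52, 4.53 and 4.54 at 0 h to 4.15 and 4.17 at 16 h.

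**Figure D4:**
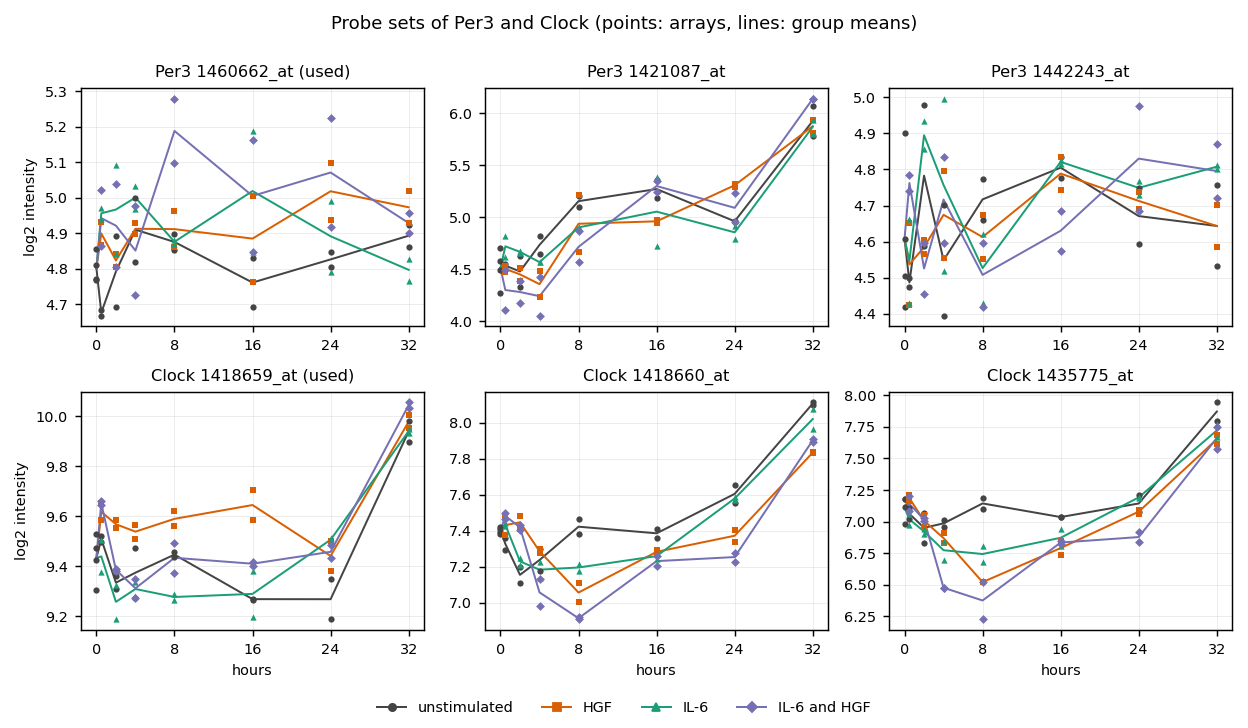
Log2 intensity (vertical axes) against hour (horizontal axes) for the 3 brightest probe sets of Per3 (upper row) and of Clock (lower row) in the 4 arms; points are single arrays and lines join group means. Per3 rises to 32 h by 1421087_at but not by 1460662_at, and the stimulated arrays of Clock at 8 h lie below the unstimulated ones by 1418660_at and 1435775_at.

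A further 16 regulators of the clock loop were measured and kept. Under HGF 13 of 16 passed, 6 higher and 7 lower (62.6% of all genes). Under IL-6 9 passed, 6 higher and 3 lower (55.1%), and under the combination 13 passed, 8 higher and 5 lower (68.0%). Rora, an ROR receptor that activates Arntl, had 9.35 and 9.35 under HGF at 32 h against 10.24 and 10.27 (-0.91 ± 0.07, adjusted p = 1e-18). With IL-6 it was higher, by 0.49 ± 0.07 at 2 h (adjusted p = 5.15e-13) and 0.41 at 24 h. Rora thus moved in opposite directions under the separate stimuli.

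Nfil3, a repressor that competes with DBP at D-boxes, was higher under all stimuli at its most changed hour. Under HGF it was not higher throughout. Its HGF mean was 8.60 at 4 h, under the lowest unstimulated hourly mean of 8.67, and 10.67 at 32 h against 10.87. At 8 h it read 8.64 and 8.70 in unstimulated cells and 9.33 and 9.37 under IL-6 (0.68 ± 0.06, adjusted p = 2.35e-17), and the combination was higher by 0.93 ± 0.06 (adjusted p = 3.28e-21). HGF gave 10.06 and 10.10 at 16 h against 9.29 and 9.27 (0.80 ± 0.06, adjusted p = 2.12e-14). Tef, a PAR bZIP relative of Dbp, was lower at 8 h under HGF, with 8.30 and 8.36 against 8.91 and 8.95 (-0.60 ± 0.09, adjusted p = 1.67e-09), the hour at which the difference of Dbp was also lowest. Hlf, the remaining member of that family, was at -0.62 at 16 h under HGF (adjusted p = 5.56e-04).

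Arntl2, a paralogue of Arntl, rose most with IL-6. At 24 h it read 7.88 and 7.76 under IL-6 against 6.48 and 6.55 (1.30 ± 0.11, adjusted p = 3.38e-20), and at 16 h 7.63 and 7.78 under the combination against 6.20 and 6.31 (1.45 ± 0.11, adjusted p = 9.58e-22). Bhlhe40, an E-box repressor also called DEC1, was at 10.95 and 10.81 under IL-6 and 11.14 and 11.05 under the combination at 16 h, against 10.33 and 10.27 (0.58 ± 0.05 and 0.80 ± 0.05, adjusted p = 4.43e-20 and 1.18e-24). In both genes the arrays with IL-6 stood clear of the unstimulated ones.

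Cry2, the other cryptochrome, went the opposite way to Cry1. At 2 h it read 5.80 and 5.76 under the combination against 7.18 and 7.19 (-1.40 ± 0.11, adjusted p = 4.53e-17), and at 4 h HGF was at -0.77 ± 0.11 (adjusted p = 1.71e-09) and IL-6 at -0.97 ± 0.11 (adjusted p = 6.98e-11). These hours lie in the range where the dap control differs; at 8 h the differences were -0.49 for HGF, -0.25 for IL-6 (adjusted p within that hour 0.132) and -0.64 for the combination. Ciart, a repressor of the ARNTL complex, was higher at 16 h under HGF (0.71) and the combination (0.72) but was not called under IL-6 (adjusted p = 0.18). The kinases Csnk1d, Csnk1e and Gsk3b and the ubiquitin ligase subunit Btrc had largest differences between -0.43 and 0.43, and Timeless between -0.47 and 0.25. Rorb, Bhlhe41 and Fbxl21 were not called in any of the 3.

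The cosine passed for 5 of these 16 genes in unstimulated cells (22.1% of all genes), 4 under HGF (20.4%), 1 under IL-6 (13.8%) and 4 under the combination (30.7%). Apart from the unstimulated arm these counts are near or below the shares of all genes. Tef peaked at 11.84 ± 0.47 h with an amplitude of 0.60 ± 0.07 in unstimulated cells, between Dbp and Nr1d2. Nfil3 peaked at 0.53 ± 0.77 h with one of 0.48 ± 0.10. The D-box activator Tef and the D-box repressor Nfil3 thus had fitted peaks at different hours after stimulation. Their highest hourly means both came at 32 h (9.33 and 10.87), and the fits held slopes of 0.0298 and 0.0794 per h. Fits of these genes with other periods or trends are not given here.

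**Figure D5:**
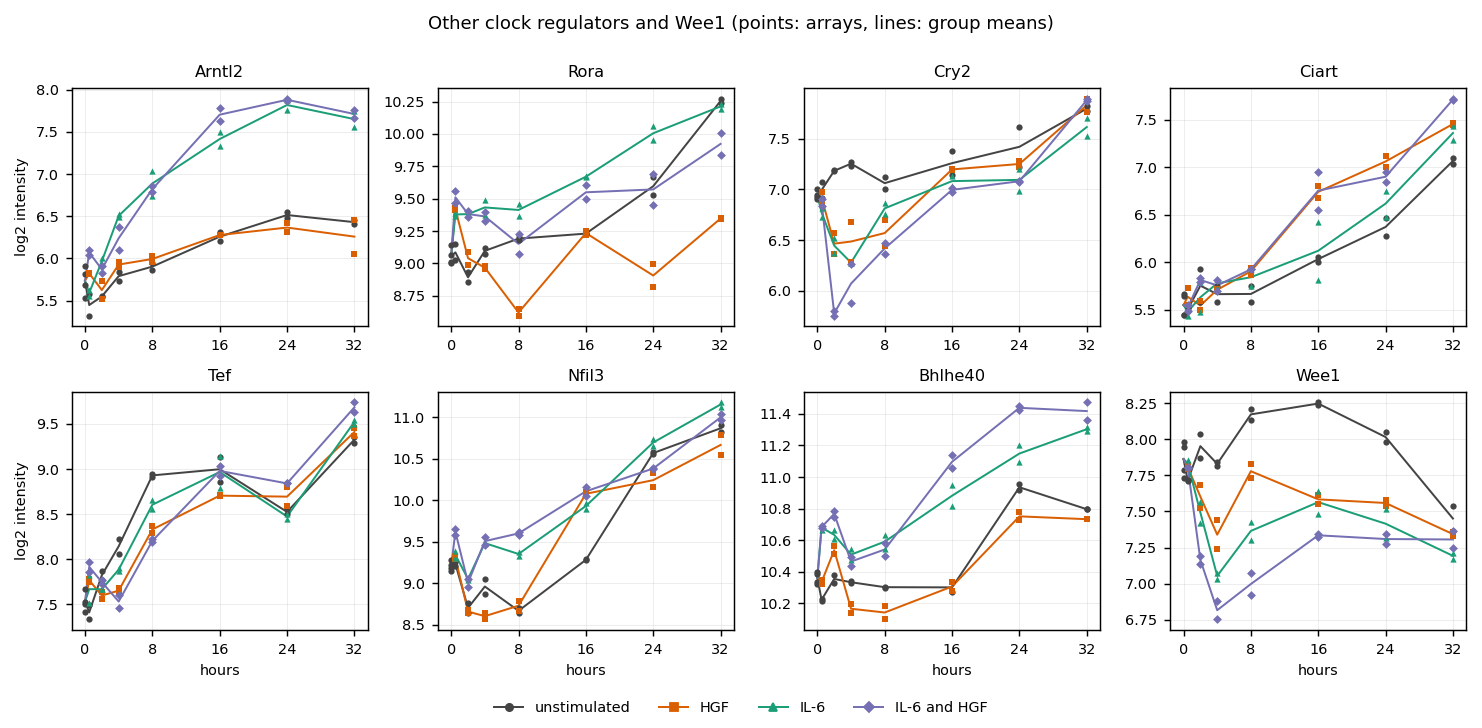
Log2 intensity (vertical axes) against hour (horizontal axes) of 7 further clock regulators and of Wee1; points are single arrays and lines join the group means in the 4 arms, with the 0 h arrays shared. Rora is lower under HGF at 32 h, Arntl2 and Bhlhe40 are higher with IL-6 at 16 and 24 h, and Tef is lower under HGF at 8 h.

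Of 18 genes known to follow the clock in liver, 16 were measured and kept; Por was not found under its name and Upp2 did not pass the filter. HGF changed 15 of 16, 7 higher and 8 lower (62.6% of all genes), IL-6 14, 5 and 9 (55.1%), and the combination 13, 5 and 8 (68.0%). Noct, which encodes nocturnin, was higher under all at its most changed hour: by 1.30 at 2 h under HGF (adjusted p = 1.94e-24), 1.35 at 16 h under IL-6 (5.2e-33) and 1.86 at 2 h under the combination (3.82e-37). Klf15, a regulator of amino acid use, was at -1.52, -1.51 and -2.22 at 2 h (adjusted p = 2.79e-18, 2.11e-15 and 3.17e-23). At 2 h the dap control differs. At 8 h Noct was higher by 0.58 under HGF and 1.12 under the combination, though at -0.23 under HGF at 32 h, and Klf15 was at -1.15 under HGF, -0.53 under IL-6 and -0.75 under the combination at 8 h. Wee1, a kinase that delays mitosis, was lower at 8 h under IL-6 (-0.81, adjusted p = 2.74e-17) and the combination, where the arrays read 7.08 and 6.92 against 8.21 and 8.13 (-1.18, adjusted p = 1.25e-22). Alas1, the first enzyme of haem synthesis, was at -1.01 at 16 h under HGF (adjusted p = 5.64e-25). Insig2, which holds back sterol synthesis, was at -0.77 at 24 h under HGF (4.14e-19) and at -0.87 under the combination (1.07e-21), and the tetraspanin Tspan4 at 0.54 at 32 h under IL-6 (9.9e-15).

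Since every culture carried dexamethasone, 8 glucocorticoid targets and the receptor Nr3c1 were looked at beside the clock genes. All 9 changed under each stimulus: 4 higher and 5 lower with HGF (62.6% of all genes changed), 2 and 7 with IL-6 (55.1%), 5 and 4 with the combination (68.0%). Tat, an amino acid breakdown enzyme, was at -1.34 at 24 h under HGF, -0.93 at 32 h under IL-6 and -1.67 at 24 h under the combination. Zbtb16, a zinc finger factor, was at -0.90 at 24 h, -0.65 at 4 h and -0.80 at 2 h, in the same order of stimuli. At 8 h Zbtb16 was at -0.01 under IL-6 (adjusted p within that hour 0.973) and -0.27 under the combination. Tsc22d3, also called GILZ, was at -0.76 under IL-6 and -1.38 under the combination at 2 h, but at -0.22 (adjusted p within that hour 0.101) and -0.25 at 8 h. Errfi1, an inhibitor of EGF receptors, was lower under HGF (-0.66 at 24 h) and higher under IL-6 (0.48 at 32 h) and the combination (0.47 at 4 h and 0.41 at 8 h). Klf9, a factor that glucocorticoids induce, was at 0.74 at 16 h under HGF. These genes did not move one way, and their part in the results for the clock genes was not tested.

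Among all genes kept, the course over the 29 group means most like that of Dbp was that of Lsm4 (r = 0.946), followed by Ovgp1 (0.942), Otud3 (0.940), Nr1d1 (0.939) and Ankrd12 (0.937). For Arntl it was Npas2 (0.835), then Tspan33 (0.795), Api5 (0.789), Crb3 (0.782) and Coro7 (0.779). For each, 1 of the first 5 is itself a clock gene. The means share arrays and the course of culture time, so these values are descriptions and carry no p. Over the same means Dbp correlated with Per2 at 0.876 and Nr1d2 at 0.824 but with Arntl at 0.370.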

How the data were processed

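RNA of 60 cultures was hybridised to Affymetrix Mouse430_2 arrays after One-Cycle labelling from 1.5 µg total RNA, per the labels' protocols. Values are log2 intensities as deposited by the authors, for 45101 probe sets. How they were summarised and scaled is not stated in the labels used here, and they were not scaled again.

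Of the probe sets, 34958 carry 1 gene symbol, 932 several and 9211 none; the last 2 kinds were left out. The brightest probe set by its mean stood for a gene, which was kept if 2 or more arrays had it above their 40th percentile. Groups are stimulus and hour. limma 3.58.1 in R 4.3.3 fitted 1 mean per group (eBayes with trend, 31 residual degrees of freedom). Comparisons used its moderated F-test over the 7 matched hours, with Benjamini-Hochberg adjustment over 14513 genes and 0.05 as the threshold. Direction is taken where the absolute difference is largest. P-values of single hours were adjusted within the hour. The cosine model used the 56 arrays of 0.5 to 32 h (40 residual degrees of freedom). Tables and figures were made with pandas 2.3.3, numpy 2.4.6 and matplotlib 3.10.9. Alternatives were other normalization, filters, probe set summaries, variance models, hours, periods and trends, the replicate number as a block, and leaving out each array; single probe sets and the Per3 probe set were added after the values were seen.

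All 10 genes are named in every comparison of arms at matched hours. Of the other lists, the text gives counts, ranges and the 4 genes with the smallest adjusted p per comparison. For likeness it gives the 5 highest correlations. Members and lists were chosen with earlier results of these data known. On simulated data for HGF against unstimulated cells (14513 genes), the test called 46 of 50 genes changed 1.3-fold and 14 of 14313 unchanged ones. These genes were counted by size of change only. How often the test calls a gene that changes at a single hour was not tested. For the cosine under IL-6 the test called 12 of 50 genes of amplitude 0.1, 31 of 50 at 0.2 and 49 of 50 at 0.4. It called 11 of 14313 unchanged genes. The rate of calls among genes that drift with hours of culture but have no rhythm was not tested.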

Additional observations from a re-analysis of the deposited data

Results flagged for a closer look

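For 5 of the 10 clock genes the effect of one stimulus differed between cells with and without the other, by the interaction test of limma over 7 hours. Of all genes 33.6% passed that test, and 19.7% with hours 8 to 32 h alone. The value is the log2 difference of the combination from unstimulated cells less those of HGF and of IL-6 alone, at its largest hour. It was 0.42 for Per1 at 24 h (adjusted p = 0.0101) and 0.86 for Per2 at 24 h (0.0213), and it was -0.66 for Cry1 at 2 h (7.35e-05), -0.26 for Clock at 16 h (0.0444) and -0.41 for Nr1d2 at 4 h (0.00939). The Clock call was lost without any of 36 of 56 arrays. Cry1 at 2 h and Nr1d2 at 4 h lie at hours where the dap control of unstimulated arrays differs from that of the others. From 8 h on the largest interaction of Nr1d2 was 0.19 and did not pass (adjusted p = 0.56), and that of Cry1 was -0.50 and passed.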

How the results depend on the processing

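Counts are of the 10 clock genes. With hours 8 to 32 h alone, the combination against IL-6 passed for 4 genes (34.6% of all genes) and the interaction for 2 (19.7%). The interaction passed for 3 with the mean over probe sets (29.5%) and 3 without the variance trend (30.9%). The cosine depended on its assumed shape. At a 20 h period it passed for 2 genes in unstimulated cells (4.16% of all genes), 0 under HGF (7.39%) and 1 under the combination (13.9%). At 28 h it passed for 7 under HGF (34% of all genes), 7 under IL-6 (29.4%) and 8 under the combination (43.1%). Without the slope it passed for 2 in unstimulated cells (6.75% of all genes) and 0 in each of the 3 stimulated arms (3.99, 1.45 and 10.6%). With a step between 4 and 8 h it passed for 3 in unstimulated cells (11%), Arntl and Npas2 being the 2 lost. Under the combination 1 gene passed with quantile normalization, with no filter, with the mean over probe sets, with the replicate block, without trend and with robust estimation, Dbp being the one lost. Of all genes 23.1 to 30.4% passed under these settings. The cosine difference passed for 1 gene for HGF and for the combination with the mean over probe sets (3.51 and 5.99% of all genes). It also passed for 1 each at 28 h (12.5 and 17.6%). The cause of these shifts was not tested.

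Leaving out each array in turn gave 7 to 8 genes for HGF, 7 to 9 for IL-6, 9 to 10 for the combination, 3 to 5 for the combination against HGF, 5 to 8 against IL-6, 7 to 8 for IL-6 against HGF and 4 to 7 for the interaction. Time courses gave 9 to 9 in 3 arms and 9 to 10 under the combination. The cosine gave 3 to 6 in unstimulated cells, 1 to 2 under HGF, 3 to 5 under IL-6 and 0 to 3 under the combination, and its differences 0 to 1, 0 to 0 and 0 to 1. Of 4360 gene values so obtained 4226 kept direction and call, 115 lost the call, 19 gained it and 0 turned.

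Gene values are differences at the hour that was largest by the main setting, or, where that hour was left out, at the largest of those used. Of 1902 gene values under the other settings 1796 kept both, 53 lost the call, 33 gained it and 20 turned. With the mean over probe sets Clock turned to -0.0223 under HGF, -0.0261 under IL-6, -0.16 under the combination and 0.0497 in the interaction; Per3 turned to -0.11 under the combination, -0.0519 against HGF, -0.0180 against IL-6 and 0.0245 for IL-6 against HGF. By its second probe set Per3 turned to -0.0314 under HGF, -0.44 under the combination, -0.22 against HGF and -0.19 against IL-6, and to 0.0229 in the unstimulated time course, all at the hours of its main probe set; its own largest change in that course was the rise of 1.41 at 32 h, and its own largest differences were -0.38 under HGF and -0.49 under the combination, both at 4 h. From 8 h on, Nr1d2 turned to -0.20 under IL-6, 0.17 for the combination against HGF and 0.19 in the interaction, Per2 to 0.27 for the combination against HGF, Per1 to -0.14 for the combination against IL-6 and 0.14 for IL-6 against HGF, and Nr1d1 to 0.22 for IL-6 against HGF.

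Residuals of same-numbered arrays correlated at -0.27 to 0.25 over 378 pairs of groups (median -4e-04), so numbers were not taken to pair the samples. With the replicate block the counts were 8, 8 and 10 against unstimulated cells, 9 for the time course under the combination in place of 10, and 1 for its cosine. Over all genes the interaction fell from 4872 to 2862 calls from 8 h on, and the IL-6 cosine difference went from 57 to 86 with quantile normalization and 90 with the 60th percentile filter. A 20 h period gave 604, 1073, 446 and 2023 cosine calls in unstimulated cells, HGF, IL-6 and the combination, in place of 3211, 2959, 2009 and 4455; leaving out the slope gave 979, 579, 210 and 1541, and the step 1597 in unstimulated cells. A 28 h period gave 5137, 4937 and 4271 for the first 3. Cosine differences numbered 615, 57 and 1104, with 5, 0 and 157 at 20 h, 1815, 613 and 2552 at 28 h, 26, 5 and 195 without the slope and 300, 6 and 600 with the step. Depth is set by signal over background: Per3 at 4.91 lies near the array medians, Dbp was not above the 40th percentile on 20 of 28 arrays up to 4 h, nor Npas2 on 8 of 32 from 8 h on, nor Per2 on 3 of 28 up to 4 h.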

Other observations

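The 2 IL-6 arrays of 16 h differed most of the 28 replicate pairs over the clock genes, with a median absolute difference of 0.38. Replicate 2 minus replicate 1 was -1.01 for Dbp and -0.42 for Nr1d2, and 0.65 for Npas2, 0.45 for Arntl and 0.42 for Cry1. In the interaction test, Arntl (adjusted p = 0.00308) and Dbp (0.038) passed without IL-6 16 h replicate 1, and Dbp in the combination against IL-6 passed without replicate 2 (0.0287). The widest pair of a single gene was that of Per2 under the combination at 2 h, at -1.18.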
